A study of Mus musculus with 4 samples.

Results

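The aminoacyl-tRNA synthetase genes were followed in RNA from cultured mouse T cells on 4 Affymetrix expression arrays, 2 from Tc1 and 2 from Tc9 cells. Members were taken by symbol in the platform annotation: names of an amino acid letter followed by "ars", with or without 1 or 2, together with Eprs, Farsa, Farsb, Aimp1 and Aimp2. The rule gave 36 of the 19505 genes on the arrays, each with 1 probe set. Names ending in 2, other than Aimp2, were taken as mitochondrial (16 genes) and the others as cytosolic (20 genes). Per the labels' protocols, both groups were T cell cultures, 1 kept under a Tc1 and the other under a Tc9 cytokine condition, and no other treatment is named. The labels name no strain, age, cytokine or culture time, and do not say whether the 2 arrays of a group came from separate cultures. The p-values therefore measure only the spread between these arrays, which may be technical.

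Each synthetase joins 1 amino acid to its matching tRNAs, the step that gives the genetic code its meaning at the ribosome. The enzymes fall in 2 unrelated classes by the fold of the catalytic domain, and mitochondria use a second set, encoded by nuclear genes, for the proteins made inside them. In mammals several cytosolic enzymes are held together with the scaffold proteins AIMP1, AIMP2 and AIMP3 (the last encoded by Eef1e1) in a multi-synthetase complex. T cells raise protein synthesis when they are activated, and many cytosolic synthetase genes are targets of ATF4, the transcription factor made when amino acids run short.

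Intensities were quantile normalized, and a change is log2(intensity + 16) in Tc9 minus that in Tc1. That scale understates the change of dim genes. The arrays numbered 1 and those numbered 2 differed in overall brightness, with median deposited intensities of 37.2 and 37.9 against 57.3 and 57.1, so each number was read as a pair holding 1 Tc1 and 1 Tc9 array. A probe set was counted as above background where its deposited intensity exceeded that of 95% of the negative-control probe sets on the same array. Of all genes, 6354 met this on all 4 arrays. All 10 measured genes of the CD8 T cell list, most of them shared with other T cells, did so. Cd8a, a chain of the CD8 coreceptor, read 5305 and 4603 in Tc1 and 5272 and 4178 in Tc9. The lists for other cells held 7 measured genes for B cells, 12 for myeloid cells, 4 for NK cells, 7 for mast cells and basophils and 5 for erythroid cells and platelets. None of these met it on all 4 arrays, and only Cd79b, of the B cell receptor, met it on 1. Among 4 CD4 T cell markers only Ctla4, which activated CD8 cells also make, did.

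Most cytosolic synthetase transcripts measured slightly lower in Tc9 than in Tc1, and no member passed the test. By limma with Benjamini-Hochberg adjustment over all genes, 0 of the 36 members passed an adjusted p of 0.05, where 0.564% of all genes passed (0.179% lower and 0.385% higher in Tc9). At an unadjusted p under 0.05 there was 1 member, Cars, beside 5.28% of all genes. The median log2 change was -0.17 over the 20 cytosolic members (-0.16 in the pair numbered 1 and -0.17 in the pair numbered 2), against -0.02 over the 6354 genes above background on all 4 arrays. All 20 belonged to those genes. Of the 20, 18 had a negative change (90%), beside 54.3% of genes above background. With intensities as deposited and with median centring it was 19, and with 1 array left out it was 15 to 18. The same 18 were lower in Tc9 within both pairs, beside 41.1% of genes above background.

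**Figure D1:**
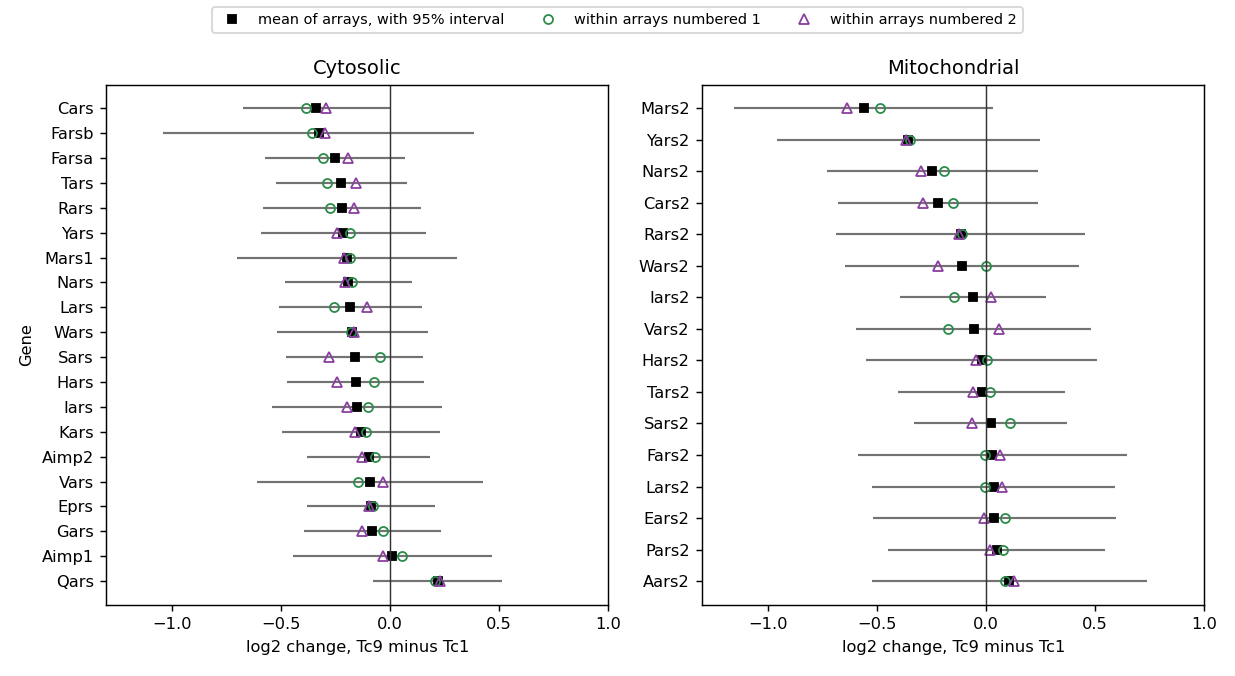
Log2 change (Tc9 minus Tc1, x axis) of each member gene (y axis), cytosolic on the left and mitochondrial on the right. Squares are the change over all 4 arrays with its 95% interval from limma, and open symbols are the change within the arrays numbered 1 or 2. Nearly all cytosolic squares lie left of 0, with a median of -0.17, and Qars lies right of it at 0.22.

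Where the groups did not overlap, the Tc9 arrays were mostly the lower ones. Both Tc9 arrays lay below both Tc1 arrays for 10 of 36 members, beside 15.1% of all genes, and above them for 1 member, beside 14.0%. Among the 29 members above background on all 4 arrays it was 9 below (31.0%) and 1 above. Of the 20 cytosolic members, 8 lay below (40%) and 1 above. The shares of genes above background were 20.0% and 17.4%. With intensities as deposited only 1 member, Mars2, kept its groups apart, since the pairs then differ in brightness. With the pair as a block in limma, 10 members passed lower and 1 higher, where 7.37% and 6.34% of all genes passed. Among the 29 members above background these were 10 (34.5%) and 1, beside 15.9% and 13.1% of genes above background. In that fit 8 of the 20 cytosolic members were lower, beside 15.9% of genes above background, and 1 was higher, beside 13.1%. The blocked fit left 1 residual degree of freedom and gave genes of like intensity one shared spread. Its p-values therefore do not measure the spread of a single gene, however small they are.

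Cars, which charges tRNA with cysteine, had the largest cytosolic difference. It read 997 and 887 in Tc1 and 760.4 and 721 in Tc9. Both Tc9 values lay below both Tc1 values. The log2 change was -0.34 ± 0.14 (SE, limma adjusted p = 0.944, unadjusted p = 0.0496, n = 2 arrays a group), with -0.38 and -0.29 in the pairs. With the block its adjusted p by limma was 0.000303. Its 95% interval reached from -0.68 to -0.00072, while the intervals of the other 35 members included 0. The interval stayed within a 2-fold change either way for 34 of the 36 members, and reached past it for Farsb and Mars2.

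Both subunits of the phenylalanine enzyme measured lower. Farsa, which encodes the alpha subunit, read 1275 and 1340 in Tc1 and 1026 and 1170 in Tc9, with no overlap. Its change was -0.25 ± 0.14 (SE, limma adjusted p = 1.00, with the block 0.00374). Farsb, the beta subunit, read 363 and 580 in Tc1 and 280 and 469.5 in Tc9, so that the groups overlapped. Farsb was lower in Tc9 by nearly the same amount in each pair (-0.36 and -0.30), and the arrays numbered 2 were higher than those numbered 1 by 0.68, more than the difference between the cell types. Its change of -0.33 ± 0.30 (SE, limma adjusted p = 1.00, with the block 0.0125) turned to 0.03 without the Tc9 array numbered 1 and to 0.0011 without the Tc1 array numbered 2, settings that set unequal numbers of arrays from the pairs against each other.

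Tars (threonine) and Nars (asparagine) kept the groups apart. Tars read 1528 and 1539 in Tc1 and 1248 and 1379 in Tc9. Nars read 1413 and 1458 in Tc1 and 1248 and 1263 in Tc9. Their changes were -0.22 and -0.19 (limma adjusted p = 1.00 for both, with the block 0.00751 and 0.0346). Sars, which charges serine and also supplies the tRNA on which selenocysteine is made, read 2314 and 2271 in Tc1 and 2241 and 1868 in Tc9. Its groups did not overlap, but most of the difference lay in the pair numbered 2 (-0.28, against -0.05 in the pair numbered 1). The adjusted p of Sars by limma was 1.00, and 0.0343 with the block.

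Rars (arginine) and Yars (tyrosine) differed more between the array numbers than between the cell types. Rars read 1612 and 1846 in Tc1 and 1328 and 1646 in Tc9. Yars read 2424 and 2014 in Tc1 and 2133 and 1697 in Tc9. In each, the Tc9 array was the lower one of its pair although the groups overlapped, with changes of -0.22 and -0.21 (limma adjusted p = 1.00 for both, with the block 0.00558 and 0.00284). The difference between the numbers exceeded that between the cell types for 11 of 20 cytosolic members (55%), beside 59.0% of genes above background. It did for 13 of 16 mitochondrial members (81.25%), beside 64.1% of all genes. Of the 9 mitochondrial members above background on all 4 arrays it did for 7 (77.8%), beside 59.0% of genes above background.

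The other lower cytosolic enzymes passed neither fit. Lars (leucine) read 897 and 829 in Tc1 and 748 and 769 in Tc9, and Hars (histidine) 1156 and 1283 in Tc1 and 1099 and 1081 in Tc9. Both had no overlap between the groups, at -0.18 and -0.16. Mars1 (methionine, which starts every cytosolic protein) read 776 and 582 in Tc1 and 682 and 500 in Tc9, at -0.20 with overlapping groups. The sign of Mars1 turned without either the Tc1 array numbered 1 or the Tc9 array numbered 2, to 0.0041 and 0.02. Iars (isoleucine) and Kars (lysine) had changes of -0.15 and -0.13, and Vars (valine), Eprs (glutamate and proline on 1 chain) and Gars (glycine) of -0.09, -0.09 and -0.08, all with overlapping groups. Each of these 5 turned above 0 when 1 of the arrays was left out, Vars the farthest, at 0.17 without the Tc9 array numbered 1. Kars and Gars each encode both the cytosolic and the mitochondrial form of their enzyme, so their signal cannot be assigned to 1 compartment.

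Qars, the glutamine enzyme, was the exception. It read 1789 and 1945 in Tc1 and 2069 and 2283 in Tc9. Both Tc9 arrays lay above both Tc1 arrays, which held for no other member. The log2 change was 0.22 ± 0.13 (SE, limma adjusted p = 1.00), with 0.21 and 0.23 in the pairs, and its 95% interval ran from -0.08 to 0.51. It passed with the block (limma adjusted p = 0.00243). With intensities as deposited its change was 0.19 and the groups overlapped. Without Qars the cytosolic changes ran from -0.34 to 0.01.

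**Figure D2:**
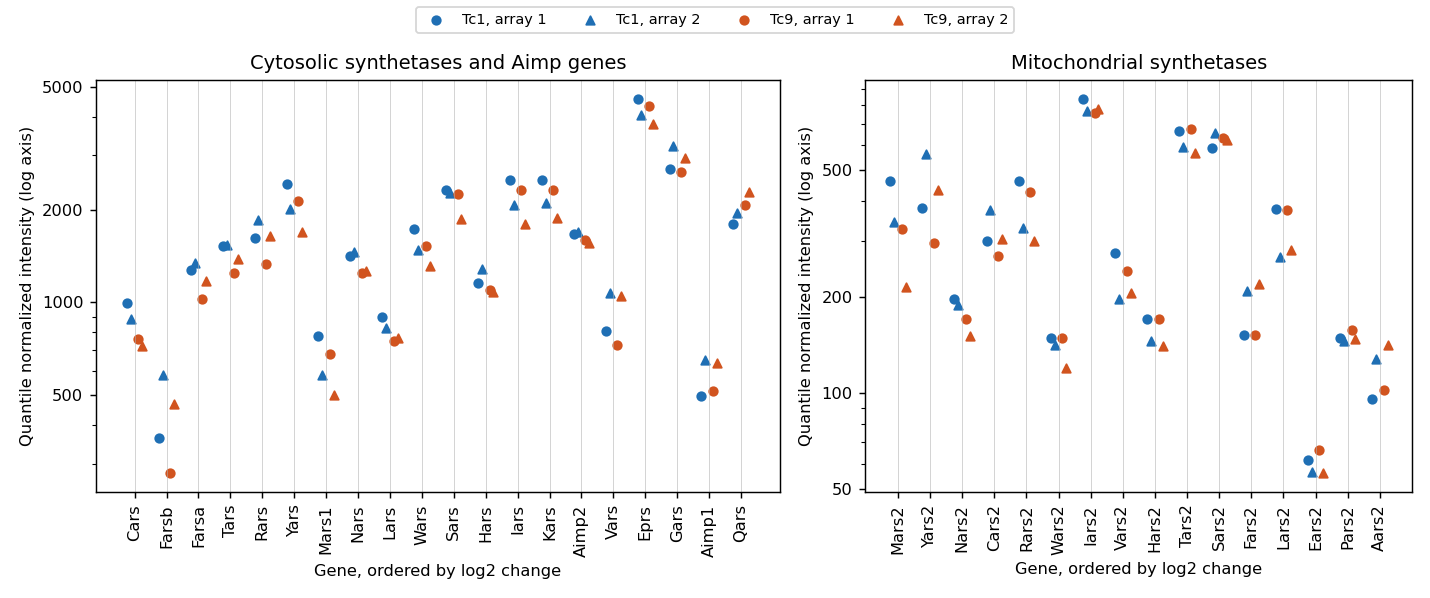
Quantile normalized intensity (log axis) of each member on each array, ordered by log2 change, with cytosolic genes on the left and mitochondrial genes on the right. Circles are arrays numbered 1, triangles arrays numbered 2, blue Tc1 and orange Tc9. For Cars both orange points (760.4 and 721) lie below both blue points (997 and 887), and for Qars both lie above (2069 and 2283 against 1789 and 1945).

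Members of the multi-synthetase complex and enzymes outside it overlapped in their changes. The complex list had 10 measured genes, of which 8 had a negative change (median -0.14), and in 2 both Tc9 arrays lay below both Tc1 arrays. All 11 measured cytosolic enzymes outside the complex had a negative change, with a median of -0.19, and in 6 both Tc9 arrays lay lowest. With the block, 2 complex genes were lower and 1 higher, against 7 lower and 0 higher outside it. For the complex, the 2 of 10 genes apart on the low side are 20%, beside 20.0% of genes above background, and the 2 lower with the block 20%, beside 15.9%. Outside it, the shares were 54.5% and 63.6%. The difference between the lists was not tested. The scaffolds themselves differed among each other. Aimp1, which is also secreted as a cytokine, read 497 and 651 in Tc1 and 516 and 636 in Tc9, a change of 0.01 whose sign turned with intensities as deposited and with median centring (-0.0091 and -0.03). Aimp2 read 1667 and 1697 in Tc1 and 1589 and 1553 in Tc9, lower on both arrays by a small amount (-0.10, limma adjusted p = 1.00, with the block 0.388). Eef1e1, which is no member by the naming rule, read 3983 and 5034 in Tc1 and 3101 and 4260 in Tc9, and had the lowest change in the complex list (-0.30 ± 0.18 SE, limma adjusted p = 1.00, with the block 4.51e-09).

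Neither catalytic class stood alone on the low side. Of 19 class I genes 16 had a negative change (median -0.15), and of 15 measured class II genes 11 did (median -0.13), mitochondrial enzymes included. The difference was not tested.

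The mitochondrial synthetase transcripts varied around 0, and none passed the test. Their median change was -0.04 (-0.0055 in the pair numbered 1 and -0.05 in the pair numbered 2), against -0.0027 over all genes, and ranged from -0.56 to 0.11. Of the 16 genes, 10 had a negative change (62.5%, beside 50.7% of all genes) and 5 in both pairs (31.2%, beside 32.0% of all genes). Above background on all 4 arrays were 9, with a median of -0.06. Of those 9, 7 had a negative change (77.8%, beside 54.3% of genes above background) and 4 in both pairs (44.4%, beside 41.1%). With the block 2 of the 9 were lower (22.2%, beside 15.9%). The median of all 16 was -0.14 without the Tc9 array numbered 1, -0.11 without the Tc1 array numbered 2 and 0.03 without the Tc9 array numbered 2. A difference from the cytosolic genes was not tested. Mars2, which charges the mitochondrial methionine tRNA, had the lowest change of all members. It read 464 and 344 in Tc1 and 327 and 215 in Tc9, with no overlap. The log2 change was -0.56 ± 0.25 (SE, limma adjusted p = 0.989, with the block 7.98e-06), at -0.48 and -0.64 in the pairs, and its interval ran from -1.15 to 0.03.

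Yars2, the mitochondrial tyrosine enzyme, read 382 and 563 in Tc1 and 296 and 433 in Tc9. The groups overlapped, and Tc9 was lower by -0.35 and -0.37 within the pairs (change -0.36 ± 0.26 SE, limma adjusted p = 1.00, with the block 0.00497). Nars2 (asparagine) read 197 and 189 in Tc1 and 170 and 151 in Tc9, apart but close to background, with 3 of 4 arrays above it. Cars2 (cysteine) read 301 and 376 in Tc1 and 269 and 305 in Tc9, at -0.22 with overlap. Neither passed with the block (limma adjusted p = 0.284 and 0.214). Rars2 (arginine) read 462 and 329 in Tc1 and 427 and 301 in Tc9, at -0.12.

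The other mitochondrial enzymes had changes between -0.11 and 0.11. Iars2 and Vars2 (isoleucine and valine) had changes of -0.06 each, and the sign differed between their pairs. Tars2 (threonine) read 664 and 592 in Tc1 and 672 and 567 in Tc9, and Sars2 (serine) 587 and 655 in Tc1 and 633 and 625 in Tc9. Their changes were -0.02 and 0.02, with overlapping groups, and that of Sars2 turned to -0.02 with median centring. Lars2 (leucine) read 377 and 267 in Tc1 and 375 and 281 in Tc9, nearly alike within each number. Fars2 (phenylalanine), Hars2 (histidine), Wars2 (tryptophan), Ears2 (glutamate), Pars2 (proline) and Aars2 (alanine) did not exceed background on every array, which limits what their changes can show. Aars2 had the highest change of the group, 0.11, from 95.5 and 128 in Tc1 to 103 and 141 in Tc9, below background throughout.

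**Figure D3:**
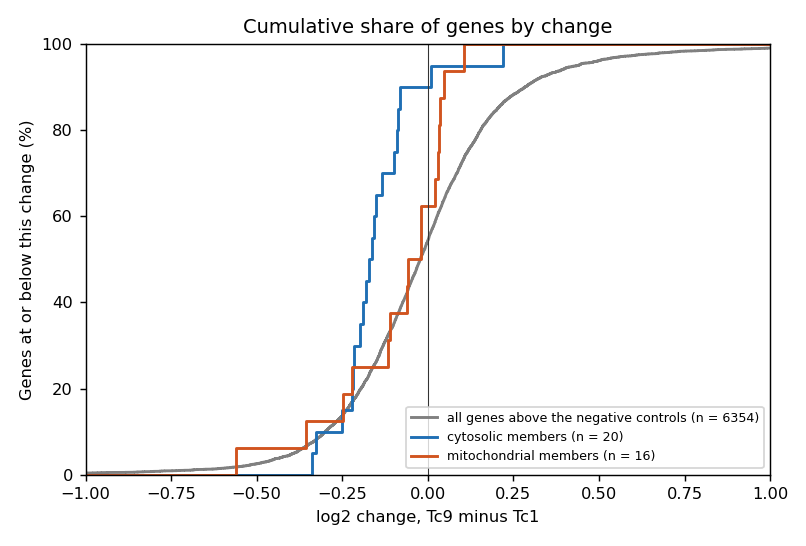
Share of genes (y axis, percent) at or below each log2 change (x axis, Tc9 minus Tc1) for the 20 cytosolic members, the 16 mitochondrial members and the 6354 genes above background on all 4 arrays. The cytosolic curve has reached 90% at 0, where the curve of all genes above background has reached 54.3%. The mitochondrial curve holds all 16 members, of which only 9 were above background on all 4 arrays.

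Wars, the tryptophan enzyme, is known as a gene that interferon gamma induces. It read 1730 and 1476 in Tc1 and 1524 and 1314 in Tc9, with overlapping groups and a change of -0.17 ± 0.15 (SE, limma adjusted p = 1.00, with the block 0.0515). The list of 18 measured interferon gamma induced genes, which holds Wars, had a median of -0.72. Of the 18, 16 had a negative change (88.9%, beside 50.7% of all genes). Past the limma threshold 6 fell and 0 rose, where 0.179% and 0.385% of all genes did. With the block 14 were lower (77.8%) and 1 higher, beside 7.37% and 6.34% of all genes. Irf1, an interferon-induced transcription factor, fell from 1894 and 1827 to 1049 and 954 (-0.88 ± 0.13 SE, limma adjusted p = 0.0426). The call of Irf1 was lost with intensities as deposited (limma adjusted p = 1.00), median centring (0.113), a pseudocount of 64 (0.0509), no intensity trend (0.134) and the robust variance model (0.0536). The other 5 encode interferon-induced GTPases, with log2 changes of -2.09 for Gbp2, -1.93 for Gbp3, -1.89 for Gbp7, -2.16 for Iigp1 and -1.49 for Irgm1 (limma adjusted p from 0.00181 to 0.00710). With intensities as deposited none of the 6 passed, and Irgm1 did not without the intensity trend (limma adjusted p = 0.0502). The change of Wars lay nearer 0 than theirs, a difference between genes that was not tested. Ido1, the tryptophan-degrading enzyme, was below background on all 4 arrays.

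Synthetase genes were also grouped by whether they are counted as ATF4 targets. Of 13 such genes 12 were measured, all with a negative change and a median of -0.18. Of 7 cytosolic genes not so counted 6 were measured, 5 with a negative change and a median of -0.19, Qars being the one above 0. The means were -0.17 and -0.15, and the difference was not tested. The cis element through which ATF4 acts has the core TGATGNAA, searched on both strands in the 250 bases before the RefSeq start (GRCm38.p6). The table used held 29 promoters of 27 member genes. The core was present in 2 of these genes (7.41%), Tars and Gars, beside 3.45% of the 32851 promoters in the table. Members were counted by gene, over any of its promoters, and the background by promoter, so the shares have unlike units. The E-box CACGTG, a palindrome that MYC binds, was present in Farsb and Iars (7.41%), beside 6.02%. No member promoter held both. A match is a description of letters and not a site in use. The promoters of Tars, Gars and Farsb are shown as those carrying a motif near the start. Like most of the 27 genes, Qars, which measured higher in Tc9, held neither in this window, and its promoter is shown too. The promoters of Tars, Gars, Farsb and Qars lie at chr15:11399659-11399908 on the minus strand, chr6:55037751-55038000 on the plus strand, chr1:78488898-78489147 on the minus strand and chr9:108507755-108508004 on the plus strand. Each is written 5′ to 3′ along its gene, with capitals marking the ATF4 core (as its reverse complement in Tars and Gars) or the E-box (Farsb).
Tars: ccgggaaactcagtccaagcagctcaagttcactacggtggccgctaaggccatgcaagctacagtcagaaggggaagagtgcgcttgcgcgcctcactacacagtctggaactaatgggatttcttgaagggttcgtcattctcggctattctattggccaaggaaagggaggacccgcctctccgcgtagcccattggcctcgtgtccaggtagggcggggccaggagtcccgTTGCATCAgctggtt
Gars: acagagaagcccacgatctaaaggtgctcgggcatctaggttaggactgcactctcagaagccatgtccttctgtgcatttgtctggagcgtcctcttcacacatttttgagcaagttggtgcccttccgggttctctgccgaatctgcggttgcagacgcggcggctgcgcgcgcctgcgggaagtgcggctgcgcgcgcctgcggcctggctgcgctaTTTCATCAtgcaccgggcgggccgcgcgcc
Farsb: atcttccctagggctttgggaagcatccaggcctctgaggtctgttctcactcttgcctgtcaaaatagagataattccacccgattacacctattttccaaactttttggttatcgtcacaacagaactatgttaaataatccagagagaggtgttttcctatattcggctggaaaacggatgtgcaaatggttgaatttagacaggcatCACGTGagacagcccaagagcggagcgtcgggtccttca
Qars: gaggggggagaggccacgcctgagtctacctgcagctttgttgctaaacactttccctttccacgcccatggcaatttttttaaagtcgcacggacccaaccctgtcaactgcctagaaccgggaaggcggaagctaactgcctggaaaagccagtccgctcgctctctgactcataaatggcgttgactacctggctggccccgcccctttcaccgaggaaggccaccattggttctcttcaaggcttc
The motif began 15 bases before the start in Tars, 30 in Gars and 39 in Farsb. The Tars change was -0.22, that of Gars -0.08 and that of Farsb -0.33, none past the test.

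Other genes of the amino acid response showed both directions. Of the 22 genes in the ATF4 list, none passed limma (0 of 22, with 1 lower before adjustment at 0.05) and 14 had a negative change (median -0.18). With the block 9 were lower (40.9%) and 1 higher, beside 7.37% and 6.34% of all genes and 15.9% and 13.1% of those above background, and 9 of the 22 were above background on all 4 arrays. The blocked counts of the lists that follow have the same background. Atf4 itself read 2180 and 2857 in Tc1 and 1897 and 2554 in Tc9 (-0.18, limma adjusted p = 1.00, with the block 0.0119). Asns, which makes asparagine, read 599 and 956 in Tc1 and 493 and 659 in Tc9 (-0.40, limma adjusted p = 1.00, with the block 6.13e-05). Trib3, a pseudokinase that restrains the response, read 187 and 189 in Tc1 and 134 and 141 in Tc9, above background on 2 of 4 arrays (-0.41, limma adjusted p = 1.00, with the block 0.0285). Cth, which makes cysteine, was the gene lower before adjustment, at 157 and 189 in Tc1 and 79.2 and 77.6 in Tc9, with 1 of 4 arrays above background (-0.996 ± 0.23 SE, limma adjusted p = 0.226). Ddit4, an inhibitor of mTORC1, was the gene higher with the block, at 461 and 379 in Tc1 and 655 and 488 in Tc9 (0.42 ± 0.20 SE, limma adjusted p = 1.00, with the block 0.000176). Ddit3, encoding the stress factor CHOP, also read higher on both Tc9 arrays, with 302 and 258 in Tc1 and 366 and 304 in Tc9 (0.24, limma adjusted p = 1.00, with the block 0.153). Chac1, which degrades glutathione, was below background. Xpot, which exports tRNA from the nucleus, read 1111 and 1037 in Tc1 and 1013 and 821 in Tc9 (-0.23, limma adjusted p = 1.00, with the block 0.0170).

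Serine and one-carbon synthesis measured lower as well, without a call. All 11 measured genes of that list had a negative change (median -0.21), 0 passed limma (3 lower before adjustment at 0.05, namely Mthfd2, Psat1 and Shmt1) and 6 were lower with the block (54.5%). Mthfd2, the mitochondrial folate enzyme of activated T cells, read 2200 and 1989 in Tc1 and 1668 and 1129 in Tc9 (-0.60 ± 0.19 SE, limma adjusted p = 0.553, with the block 2.29e-20). That blocked p rests on the spread shared by genes of like intensity, not on that of Mthfd2 alone. The change of Mthfd2 was -0.88 without the Tc9 array numbered 1 and -0.32 without the Tc9 array numbered 2. Psat1, of serine synthesis, read 3715 and 3357 in Tc1 and 2781 and 2638 in Tc9 (-0.38 ± 0.12 SE, limma adjusted p = 0.494). Shmt2 and Phgdh, also of serine and glycine synthesis, had changes of -0.13 and -0.11.

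Genes of amino acid uptake and sensing had changes on both sides of 0. Among 13 amino acid transporters 1 rose and 0 fell past the limma threshold, beside 0.385% and 0.179% of all genes. Of the 13, 7 had a negative change, and the median was -0.0015. With the block 3 were lower and 2 higher. The riser was Slc16a10, a carrier of aromatic amino acids, from 372 and 468 in Tc1 to 909.8 and 1010 in Tc9 (1.17 ± 0.17 SE, limma adjusted p = 0.0429). Its call was lost with intensities as deposited (limma adjusted p = 1.00), median centring (0.340), a pseudocount of 64 (0.0533), no intensity trend (0.120) and the robust variance model (0.0542). Slc7a5 and Slc3a2, the chains of the main leucine carrier of activated T cells, read lower on both Tc9 arrays, at -0.24 and -0.19 (limma adjusted p = 1.00 for both, with the block 9.65e-06 and 0.000409). In the list of amino acid sensing and mTORC1, 0 of 17 passed limma (1 lower, Eif2ak2, and 1 higher, Rragd, before adjustment at 0.05), and 6 had a negative change (median 0.05). With the block 1 was lower and 4 were higher. Mtor, the growth kinase, measured 0.13. Eif2ak4, the kinase GCN2 that senses uncharged tRNA, measured -0.13, with 0.17 and -0.43 in the pairs.

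In the list of MYC and ribosome building, all 19 measured genes had a negative change (median -0.21), 0 passed limma (1 lower before adjustment at 0.05, Odc1) and 12 were lower with the block (63.2%). Myc itself read 9462 and 8274 in Tc1 and 8020 and 7176 in Tc9 (-0.22 ± 0.12 SE, limma adjusted p = 1.00, with the block 7.04e-08). The cytosolic initiation and elongation factors had a median of -0.09, with 17 of 25 negative and 9 lower with the block (36%). The mitochondrial translation factors had a median of -0.10 (17 of 20 negative), the genes of tRNA transcription, processing and export -0.10 (17 of 24), and the other tRNA charging and editing genes -0.13 (11 of 13). In these lists 0 genes passed limma, and 1 of them, Mrrf of the mitochondrial translation factors, was past an unadjusted p of 0.05, on the higher side. Tarsl2, a relative of Tars, was above background on 2 arrays only, at -0.13. Over all 175 measured genes of the pathway lists, 6 fell and 1 rose past the limma threshold, beside 0.179% and 0.385% of all genes. With median centring the split was 5 and 0. All 6 that fell were in the interferon gamma list, and the 1 that rose was the transporter Slc16a10.

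**Figure D4:**
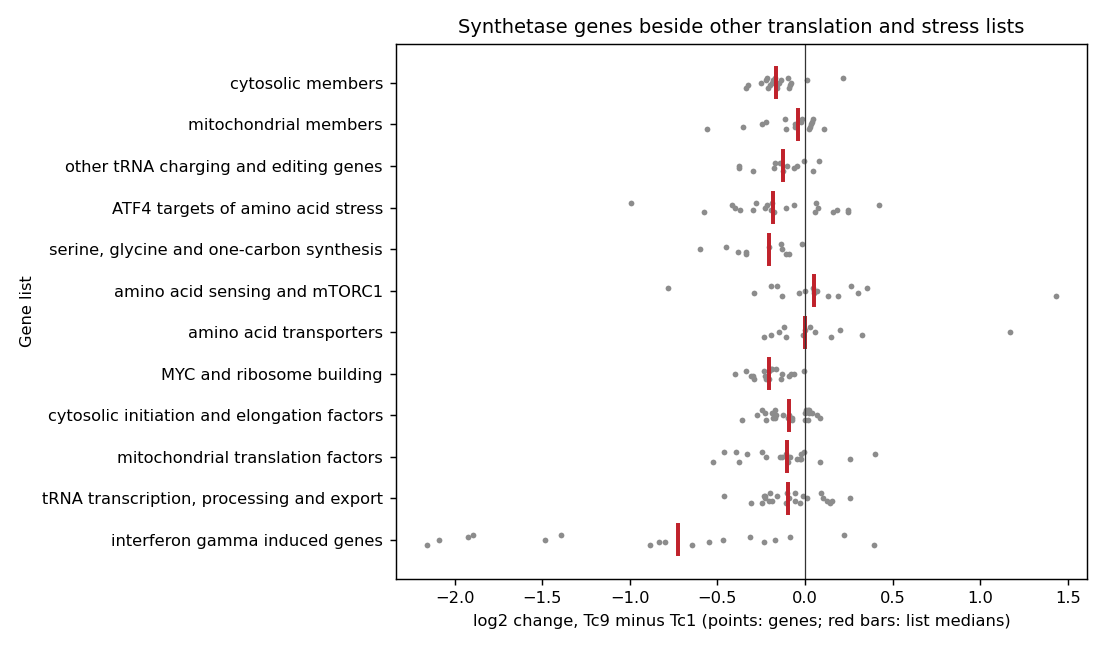
Log2 change (x axis, Tc9 minus Tc1) of each gene in the cytosolic and mitochondrial member groups and in 10 related gene lists (y axis). Grey points are genes and red bars list medians, which run from -0.72 for interferon gamma induced genes to 0.05 for amino acid sensing and mTORC1, with cytosolic members at -0.17.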

How the data were processed

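RNA from 2 Tc1 and 2 Tc9 samples was measured on Affymetrix arrays after Trizol extraction and biotin labelling, per the labels' protocols. The authors deposited 1 linear intensity per probe set and array. How it was corrected for background and summarized, and with which software, is not given in the sources used here. Of 28846 probe sets, 6640 controls were set aside (5222 of them negative controls), and 19572 of the rest had 1 gene symbol. For each gene the probe set with the highest mean was kept, which left 19505 genes. Values were quantile normalized over all probe sets other than controls, 16 was added and log2 taken. Tc9 was compared with Tc1 in limma 3.58.1 (R 4.3.3; lmFit, eBayes with an intensity trend) over all genes, and p-values were adjusted by Benjamini-Hochberg, with 0.05 as the threshold. The fit had 2 residual and 5.08 prior degrees of freedom. The fit without the block was tested on simulated data with independent arrays and steps larger than any member change. The blocked fit was not tested in this way. The number of arrays limits the precision.

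Members shown with the values of all 4 arrays were those past either fit or an unadjusted p of 0.05, up to 6 of the largest rises and falls of each compartment, and the Aimp genes with Eef1e1. Fars2, Wars2, Ears2 and Pars2, which are among those rises and falls, were left out as not above background on every array. Nars2 and Aars2, also not above background on every array, are shown all the same. From the pathway lists, genes past the threshold and a set fixed by function were named. Some further members are given in the same way. Ddit4, Cth, Shmt1, Eif2ak2, Rragd, Odc1 and Mrrf were named after their values were seen. The members and lists were chosen with earlier results of these data known. Promoters came from RefSeq's GRCm38.p6 table, with the 50 bases after the start left out. No table of proteins was used. Some genes of the family are not reported here. Alternatives covered normalization, pseudocount (1 and 64), filters on low values, the variance model, the replicate number as a block, probe set choice and leaving out each array.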

Additional observations from a re-analysis of the deposited data

How the results depend on the processing

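Of the 36 members, 0 passed in every setting tried except the replicate block, where 11 did. The replicate block rests on array numbers that nothing in the labels ties to shared cultures. Deviations of same-numbered arrays from their group means correlated across genes with r = 0.729, over 2 pairs. The pathway count of 7 became 0 with intensities as deposited, 4 with no intensity trend and 71 with the replicate block, and 9 to 11 with 1 array left out. The cytosolic median was -0.19 as deposited, -0.21 with median centring, -0.164 with a pseudocount of 64, and -0.18 to -0.14 with 1 array left out. The mitochondrial median ran from -0.138 to 0.0304 with 1 array left out. Members with both Tc9 arrays lowest numbered 10, 1 as deposited, and 18 to 21 with 1 array left out, where fewer arrays have to be apart.

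Signs turned for Aimp1 as deposited (-0.00908) and with median centring (-0.0313), for Hars2 as deposited (0.00514), and for Sars2 with median centring (-0.0161). Leaving out 1 array leaves 1 array in a group, which is assumed to vary like the other group's, and sets unequal numbers of arrays from the pairs against each other. Among the genes tested this way, which include all members, log2 changes then spanned 0 from -0.09842 to 0.3116 for Aars2, -0.1782 to 0.1989 for Aimp1, -0.3928 to 0.03297 for Atf4, -0.05819 to 0.1318 for Ears2, -0.2997 to 0.03583 for Eif2ak4, -0.1822 to 0.006906 for Eprs, -0.2154 to 0.2727 for Fars2, -0.6834 to 0.03062 for Farsb, -0.2046 to 0.04255 for Gars, -0.147 to 0.1053 for Hars2 and -0.3318 to 0.03112 for Iars. They also did from -0.1263 to 0.005512 for Iars2, -0.2853 to 0.01544 for Kars, -0.2047 to 0.2723 for Lars2, -0.4155 to 0.01934 for Mars1, -0.2728 to 0.05285 for Phgdh, -0.3587 to 0.1261 for Rars2, -0.05734 to 0.09801 for Sars2, -0.1395 to 0.09893 for Tars2, -0.396 to 0.1416 for Tarsl2, -0.3509 to 0.1687 for Vars, -0.2824 to 0.1685 for Vars2 and -0.2525 to 0.03138 for Wars2. Of the cytosolic members 15 to 18 then had a negative change, and of the mitochondrial members 7 to 12. The cause was not tested. Over the 68 genes so tested, 852 of the alternative values kept both direction and side of the threshold, 33 passed it newly, 16 lost it and 42 changed sign.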
